A study of Mus musculus with 26 samples.

Results

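The enzyme LSD1, encoded by Kdm1a, was deleted in MN1-transformed mouse myeloid progenitor cells that were kept without all-trans retinoic acid (ATRA), and the RNA of 3 knockout (KO) libraries was set against that of 3 control (CTL) libraries. The 6 libraries were taken by their titles from 26 samples, of which 24 were RNA libraries, and every gene that passed a filter on low counts was tested, 14663 of the 48795 in the count table. KO cells were labelled as treated with 0.1 µM 4-hydroxytamoxifen for 72 hours, the drug that activates a CreERT2 recombinase, and received no ATRA. CTL cells received no ATRA either, and their labels list no 4-hydroxytamoxifen. Whether CTL cells were given the drug or its solvent is not stated, so an effect of the drug and an effect of the deletion cannot be told apart. Both groups had the background C57BL/6 and grew in serum with interleukin-3, interleukin-6 and stem cell factor. The strain field reads CreERT2-;LSD1TM1Schuele for all 24 RNA libraries, KO libraries included. Which part of Kdm1a this allele loses, and whether each group was 1 clone or a mixed culture, is not given. For contrast, the same KO effect was read in 6 other MN1 libraries treated with 1 µM ATRA and in 6 libraries of H9M cells (Hoxa9/Meis1-transformed) without ATRA.

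LSD1 removes methyl groups from histone H3K4 within the CoREST repressor complex, which the DNA-binding repressors GFI1 and GFI1B bring to their target genes. GFI1 and the activator PU.1, encoded by Spi1, act against each other in myeloid progenitors, where PU.1 drives granulocyte and monocyte genes. MN1 is a transcriptional cofactor whose overexpression transforms such progenitors and holds back their maturation. The series' title concerns LSD1 inhibition, GFI1 and the targets of PU.1 in leukaemia, and the comparison asks which genes changed when LSD1 was lost without a differentiating agent.

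Many genes changed by small amounts when LSD1 was lost and fewer by large amounts, and the large changes were mostly increases. Genes of granulocytes, monocytes and mast cells, receptors of innate immunity and p53 targets mostly rose, and genes of DNA replication, mitosis and ribosome biogenesis mostly fell, with the counts given below. Of the 14663 genes tested, 4212 (28.7%) were higher and 3859 (26.3%) were lower in KO libraries at an adjusted p under 0.05 (edgeR's quasi-likelihood test, two-sided, with Benjamini-Hochberg adjustment), 55.0% in all. The shares of 28.7% and 26.3% are the base for every count of list members called higher or lower in this comparison. The median log2 fold change over all tested genes was 0.01 (KO over CTL throughout). At 2-fold or more, 1449 genes were higher (9.88%) and 210 were lower (1.43%). A change of at least 4-fold was seen for 637 higher and 46 lower genes, and one of at least 16-fold for 127 higher and 8 lower genes. The 3 KO and 3 CTL libraries did not overlap in CPM, the count divided by the library total and multiplied by 1000000, for 8989 genes, 61.3% of those tested. Counts of 0 in every CTL library went with a call of higher for 48 genes, and counts of 0 in every KO library went with a call of lower for 4. Genes under 1 CPM in CTL and at 5 CPM or more in KO numbered 47, against 0 genes at 5 CPM or more in CTL and under 1 CPM in KO. Library totals were 24956107 to 26224980 counts in KO and 26506152 to 30964298 counts in CTL, and 19047 to 19373 genes had a count in KO libraries against 18558 to 18924 in CTL libraries. The labels do not say that libraries came from separate cultures, so p-values measure the spread between these libraries, which may be technical. In bulk RNA, more cells of a type and more RNA per cell cannot be told apart.

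**Figure D1:**
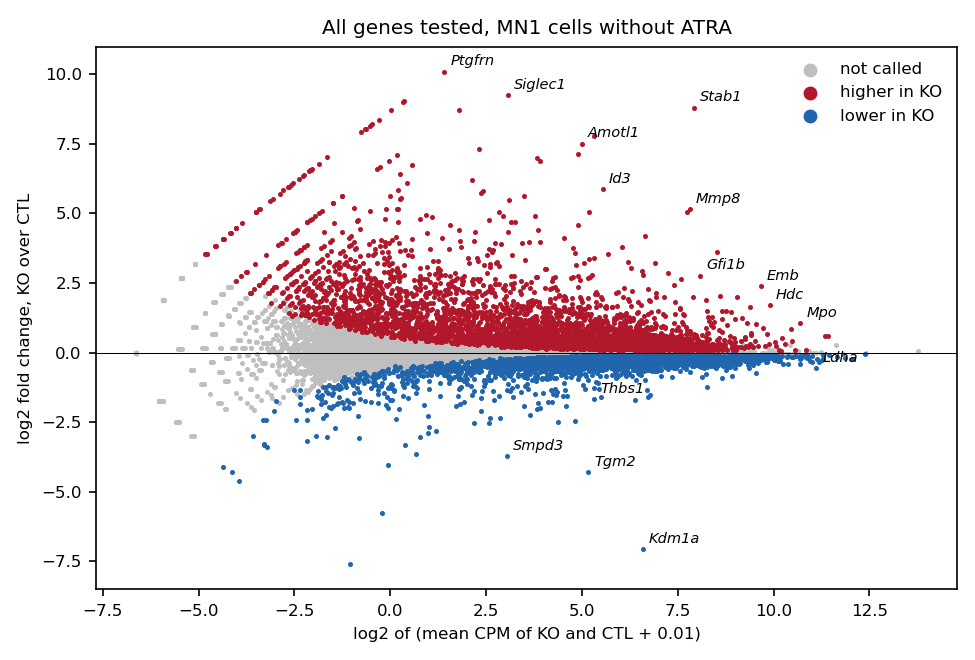
Each point is 1 of the 14663 genes tested, with the log2 of its mean CPM over the 6 libraries (plus 0.01) on the x axis and its fitted log2 fold change, KO over CTL, on the y axis. Red genes were called higher in KO (4212), blue genes lower (3859) and grey genes were not called. Far more points lie above 2 than below -2, and the streaks at the upper left are genes with 0 or few counts in CTL, whose fitted fold change depends on the prior count.

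Kdm1a itself (chr4:136550533-136602787, GRCm38.p6) checked the labels. Its level was 1.41, 1.28 and 1.58 CPM in the KO libraries and 187, 193 and 192 CPM in the CTL libraries, so the KO mean was 0.747% of the CTL mean (log2 fold change -7.06 ± 0.062, edgeR adjusted p = 1.3e-35). Among 19 tested genes of LSD1, its CoREST partners and the repressors that recruit it, 5 were higher and 8 lower, with a median log2 fold change of -0.04. Over all tested genes 28.7% were higher and 26.3% lower, with a median of 0.01. Both recruiting repressors rose. Gfi1b (chr2:28609450-28621982) had 472, 478 and 475 CPM in KO libraries, against 72.9, 70.7 and 65.9 CPM in CTL libraries (log2 fold change 2.76 ± 0.051, edgeR adjusted p = 1.2e-27). Gfi1 (chr5:107716655-107725805) had 297, 285 and 291 CPM in KO libraries, against 107, 113 and 120.4 CPM in CTL libraries (log2 fold change 1.35 ± 0.039, edgeR adjusted p = 9.1e-23). Neither gene's KO and CTL libraries overlapped. The scaffold gene Rcor2 fell to 39.6 ± 2.3 CPM in KO, against 59.2 ± 2.2 CPM in CTL (log2 fold change -0.59 ± 0.058), and its relative Rcor1 stood at 113 ± 4.0 CPM in KO and 116 ± 3.7 CPM in CTL, with libraries that overlapped. Zeb1, another DNA-binding repressor that works with CoREST, rose at a low level, to 0.468 ± 0.11 CPM in KO, against 0.0831 ± 0.077 CPM in CTL (log2 fold change 2.48 ± 0.60). Means in this text are given ± SD with n = 3 libraries, and fold changes ± SE.

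The factors that define these progenitors moved little beside the genes described below. Spi1 was 90.2, 96.0 and 87.0 CPM in KO libraries and 79.2, 83.2 and 78.0 CPM in CTL libraries (log2 fold change 0.18 ± 0.043, edgeR adjusted p = 0.00069). Cebpa, which directs granulocyte commitment, was 245, 236 and 225 CPM in KO and 208, 219 and 212 CPM in CTL (log2 fold change 0.14 ± 0.035). Mouse Mn1 was 57.9, 46.2 and 50.3 CPM in KO and 54.9, 63.5 and 59.4 CPM in CTL, with overlapping libraries. Its call of lower (log2 fold change -0.21 ± 0.076) was lost, at adjusted p of 0.0533 to 0.163, when KO library 2 or 3 or CTL library 2 or 3 was left out. Whether the Mn1 counts include the transforming construct is not stated. Hoxa9 fell to 65.1, 69.4 and 70.0 CPM in KO, against 85.1, 76.5 and 78.0 CPM in CTL (log2 fold change -0.23 ± 0.053), and Meis1 had 0 counts in all 6 libraries.

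Of 36 tested myeloid transcription factors, 22 were higher and 4 lower (2 lower without any 1 of KO 2, KO 3, CTL 1 and CTL 3), with a median log2 fold change of 0.47. The shares over all tested genes were 28.7% higher and 26.3% lower. Id3, an inhibitor of basic helix-loop-helix factors, changed most among the 36: 95.02, 91.5 and 88.4 CPM in KO libraries, against 1.43, 1.97 and 1.28 CPM in CTL libraries (log2 fold change 5.86 ± 0.091, edgeR adjusted p = 5.4e-28). Its relative Id2 rose to 31.5 ± 1.4 CPM in KO, against 10.8 ± 0.39 CPM in CTL (log2 fold change 1.55 ± 0.063), and Id1 to 109.5 ± 8.4 CPM in KO, against 59.6 ± 4.4 CPM in CTL (log2 fold change 0.87 ± 0.061). Irf8, which directs monocyte and dendritic cell development, had 24.1, 25.2 and 24.6 CPM in KO libraries, against 8.94, 9.11 and 8.81 CPM in CTL libraries (log2 fold change 1.46 ± 0.062, edgeR adjusted p = 2e-18). Tfec, a MiT-family factor of macrophages, was 8.19 ± 0.93 CPM in KO and 1.77 ± 0.13 CPM in CTL (log2 fold change 2.20 ± 0.11). Cebpe, needed for late granulocyte maturation, reached 5.55 ± 0.41 CPM in KO, against 0.898 ± 0.055 CPM in CTL (log2 fold change 2.62 ± 0.17). Runx1 also rose (log2 fold change 0.79 ± 0.052), and Cebpb, the factor of emergency granulopoiesis, fell to 2.12 ± 0.56 CPM in KO, against 3.00 ± 0.13 CPM in CTL. Junb was 74.5 ± 11 CPM in KO and 74.7 ± 3.6 CPM in CTL, and Zeb2 was 61.4 ± 2.2 CPM in KO and 62.7 ± 1.1 CPM in CTL, both with overlapping libraries.

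Genes of stem and progenitor cells split: 13 of 33 tested were higher and 14 lower, with a median log2 fold change of -0.06. Of all tested genes, 28.7% were higher and 26.3% lower. Cd34, the surface marker of immature blood cells, had 3129, 3105 and 3161 CPM in KO libraries, against 2037, 2059 and 2145 CPM in CTL libraries (log2 fold change 0.59 ± 0.032, edgeR adjusted p = 6.1e-16). Erg rose to 178 ± 4.3 CPM in KO, against 117 ± 0.36 CPM in CTL (log2 fold change 0.61 ± 0.040), and Gata2 to 371 ± 9.0 CPM in KO, against 262 ± 4.2 CPM in CTL (log2 fold change 0.50 ± 0.034). Both encode transcription factors of blood stem and progenitor cells. Kit, the stem cell factor receptor, fell to 267, 261 and 269 CPM in KO, against 337, 348 and 342 CPM in CTL (log2 fold change -0.37 ± 0.031). Lower too were Myb (-0.26 ± 0.035), Hlf (-0.53 ± 0.042), Bmi1 (-0.48 ± 0.077), Hoxa10 (-0.30 ± 0.057) and Meis2 (-0.87 ± 0.076), given as log2 fold changes. Slamf1, the stem cell marker CD150, rose to 2.89 ± 0.44 CPM in KO, against 0.456 ± 0.18 CPM in CTL (log2 fold change 2.62 ± 0.29). Angpt1, a secreted niche factor, changed most among the genes that fell, at 12.5 ± 0.97 CPM in KO and 36.5 ± 3.7 CPM in CTL (log2 fold change -1.54 ± 0.091). Flt3, the cytokine receptor of lymphoid-primed progenitors, was 327 ± 8.6 CPM in KO and 339.6 ± 1.8 CPM in CTL and was not called. Cd34 and Kit mark the progenitors named in the labels, and the T cell genes Cd3e and Cd3g had 0 counts in all 6 libraries.

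**Figure D2:**
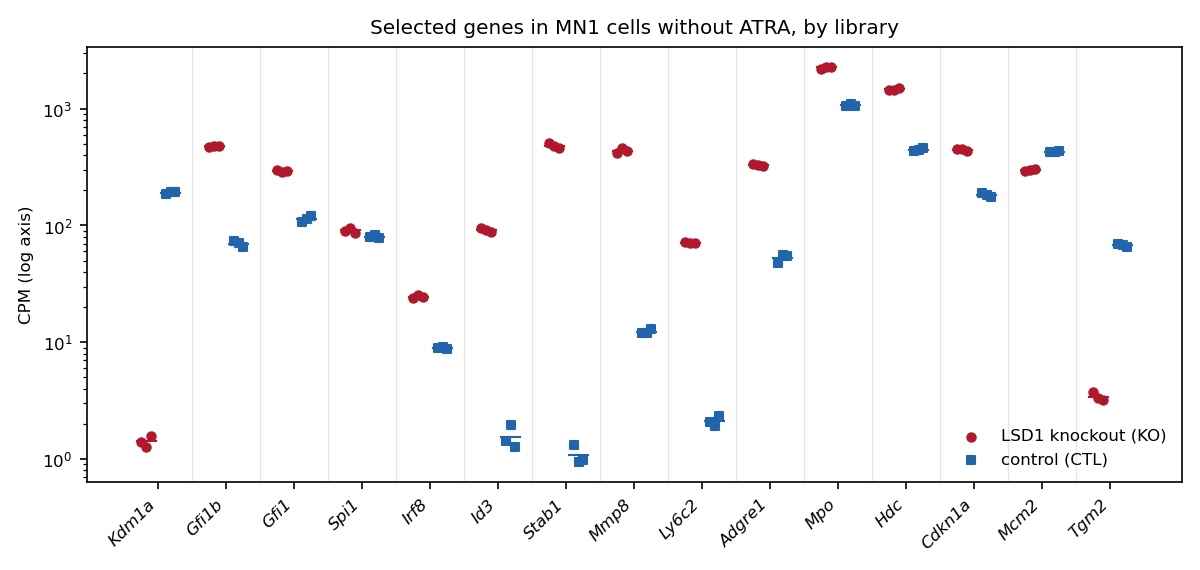
CPM of 15 genes in each library on a log axis, with KO libraries as red circles to the left and CTL libraries as blue squares to the right, and the group mean as a line. The spread between replicates is small beside the distance between groups for 14 of the 15 genes. For Spi1, KO libraries (87.0 to 96.0 CPM) lie close above its CTL libraries (78.0 to 83.2 CPM).

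Granule genes mostly rose at both stages of granulocyte maturation. Of 14 tested primary granule genes, which progenitors switch on early, 12 were higher and 0 lower (edgeR, adjusted p), with a median log2 fold change of 0.84. The count of lower genes was also 0 at an unadjusted p under 0.05 and with DESeq2. Myeloperoxidase, Mpo, had 2195, 2276 and 2281 CPM in KO libraries, against 1054, 1101 and 1058 CPM in CTL libraries (log2 fold change 1.07 ± 0.035, edgeR adjusted p = 3.3e-21). Ms4a3, a membrane protein of granulocyte-monocyte progenitors, had 279, 296 and 285 CPM in KO libraries, against 47.6, 53.5 and 59.5 CPM in CTL libraries (log2 fold change 2.41 ± 0.062, edgeR adjusted p = 6.4e-24). The protease inhibitor gene Serpinb1a rose to 582 ± 15 CPM in KO, against 294 ± 3.2 CPM in CTL (log2 fold change 0.98 ± 0.034), and the chaperone gene Calr to 3309 ± 19 CPM in KO, against 2197 ± 16 CPM in CTL (log2 fold change 0.59 ± 0.023). Neutrophil elastase, Elane, rose too (78.4 ± 1.5 CPM in KO and 49.6 ± 3.1 CPM in CTL, log2 fold change 0.65 ± 0.057). Cathepsin G, Ctsg, was not called, with overlapping libraries at 602, 607 and 605 CPM in KO and 554, 609.5 and 577 CPM in CTL.

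Of 27 tested secondary granule and neutrophil maturation genes (34 listed), 21 were higher and 1 lower, with a median log2 fold change of 2.23. Mmp8, neutrophil collagenase (chr9:7558429-7568486), rose most of them, with 418, 458 and 437 CPM in KO libraries, against 11.9, 11.9 and 13.1 CPM in CTL libraries (log2 fold change 5.15 ± 0.070, edgeR adjusted p = 4.2e-31). Anxa1, an anti-inflammatory phospholipid-binding protein of neutrophils, had 166, 172 and 167 CPM in KO libraries, against 20.7, 22.5 and 22.4 CPM in CTL libraries (log2 fold change 2.94 ± 0.044). The iron-siderophore binder Lcn2 had 66.8, 66.5 and 65.6 CPM in KO libraries, against 15.9, 17.9 and 12.9 CPM in CTL libraries (log2 fold change 2.09 ± 0.067). The alarmin genes S100a8 and S100a9, which neutrophils express at very high levels, reached 4.19 ± 0.41 and 5.38 ± 0.22 CPM in KO, against 0.724 ± 0.13 and 1.13 ± 0.28 CPM in CTL. Cxcr2, the receptor that draws neutrophils out of marrow, rose to 9.84 ± 0.091 CPM in KO, against 1.09 ± 0.50 CPM in CTL (log2 fold change 3.14 ± 0.18). Cxcr4, the receptor that retains them there, fell to 19.5, 18.8 and 20.2 CPM in KO, against 46.1, 47.7 and 50.01 CPM in CTL (log2 fold change -1.30 ± 0.045). Of the list, Ltf and Ngp were under 1 CPM in both groups: lactoferrin, Ltf, was 0.364 ± 0.069 CPM in KO and 0.0328 ± 0.057 CPM in CTL, and Ngp 0.455 ± 0.070 CPM in KO and 0.361 ± 0.051 CPM in CTL. Chil3, Fpr1, Fpr2, Olfm4 and Orm1 had 0 counts in all 6 libraries. Summed over the list, CPM ran from 872 to 920.4 in KO and from 161 to 176 in CTL. Mmp8 held the largest part of the KO sum, at 418, 458 and 437 CPM, against 11.9, 11.9 and 13.1 CPM in CTL libraries. The Stfa genes among the members are near-identical copies, so their values are uncertain.

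Monocyte and macrophage genes mostly rose in the same libraries, with 24 of 31 tested genes higher and 1 lower (39 listed) and a median log2 fold change of 1.58. Siglec1, the sialic-acid receptor CD169 of macrophages, had 18.3, 16.2 and 15.8 CPM in KO libraries, against 0, 0.0646 and 0 CPM in CTL libraries, where 2 counts were seen in all (ratio with a 95% counting interval of 204 to 6107). Ly6c2, the monocyte surface antigen, had 71.8, 70.3 and 70.5 CPM in KO libraries, against 2.07, 1.94 and 2.33 CPM in CTL libraries (log2 fold change 5.06 ± 0.067, edgeR adjusted p = 3e-31). It has a close paralog, Ly6c1, so its counts may be shared with that gene. Clec4d, a C-type lectin that binds mycobacterial lipid, had 123, 129 and 117 CPM in KO libraries, against 8.64, 9.07 and 9.10 CPM in CTL libraries (log2 fold change 3.78 ± 0.066). Adgre1, the F4/80 antigen, had 337, 327 and 322 CPM in KO libraries, against 47.8, 55.9 and 54.5 CPM in CTL libraries (log2 fold change 2.63 ± 0.076). The low-affinity Fc receptor gene Fcgr3 rose to 203 ± 2.2 CPM in KO, against 81.9 ± 1.9 CPM in CTL (log2 fold change 1.31 ± 0.034). Several defining monocyte genes were low in both groups. Csf1r, the receptor for macrophage colony-stimulating factor, was 0.419, 0.441 and 0.463 CPM in KO libraries and 0.189, 0.0646 and 0.164 CPM in CTL libraries (log2 fold change 1.65 ± 0.37), and C1qa, Marco, Ms4a7 and Msr1 had 0 counts in all 6. The monocyte chemokine receptor gene Ccr2 rose less, to 576 ± 11 CPM in KO, against 502 ± 10 CPM in CTL (log2 fold change 0.19 ± 0.077). The 1 gene that fell was F13a1, coagulation factor XIII A of monocytes, with 115, 116 and 111 CPM in KO libraries, against 205, 211 and 211 CPM in CTL libraries (log2 fold change -0.88 ± 0.039, edgeR adjusted p = 4.5e-18).

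Promoters of 5 of these genes are shown because each holds a motif of a factor named above and its H3K4me2 signal is given below. Other genes named in this text also hold such motifs and are not shown. They run from 250 bases before to 50 bases after the RefSeq start site (GRCm38.p6), 5′ to 3′ on the gene's strand, and 10316 tested genes had such a promoter. Capitals mark exact matches on either strand to GAGGAAGT (a PU.1 motif), AAATCAC (the core bound by GFI1 and GFI1B) or TTGCNNAA (a C/EBP motif). Positions count from the start site to the first matching base, and no match overlaps another here. Mmp8 lies at chr9:7558179-7558478 (+), with a PU.1 match on the minus strand 221 bases before the start site, a GFI1 core match on the plus strand 91 before and a C/EBP match 19 before. Ms4a3 lies at chr19:11640802-11641101 (-), with a C/EBP match 41 bases after the start site. Irf8 lies at chr8:120736108-120736407 (+), with a GFI1 core match on its minus strand 176 bases before. Ly6c2 lies at chr15:75111888-75112187 (-), with PU.1 matches 142 and 8 bases before. F13a1, the gene that fell, lies at chr13:37049164-37049463 (-), with a PU.1 match 14 bases after.
Mmp8: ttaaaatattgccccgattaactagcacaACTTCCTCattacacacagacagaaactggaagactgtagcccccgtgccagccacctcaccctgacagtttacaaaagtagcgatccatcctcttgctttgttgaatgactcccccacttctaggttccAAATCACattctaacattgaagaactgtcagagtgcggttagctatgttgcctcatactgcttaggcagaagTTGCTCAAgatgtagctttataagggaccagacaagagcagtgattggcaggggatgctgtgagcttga
Ms4a3: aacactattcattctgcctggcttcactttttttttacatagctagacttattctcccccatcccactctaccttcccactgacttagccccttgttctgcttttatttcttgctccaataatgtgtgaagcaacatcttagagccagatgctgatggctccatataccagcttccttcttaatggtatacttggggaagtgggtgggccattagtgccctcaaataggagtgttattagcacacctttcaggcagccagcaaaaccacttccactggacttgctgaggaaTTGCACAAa
Irf8: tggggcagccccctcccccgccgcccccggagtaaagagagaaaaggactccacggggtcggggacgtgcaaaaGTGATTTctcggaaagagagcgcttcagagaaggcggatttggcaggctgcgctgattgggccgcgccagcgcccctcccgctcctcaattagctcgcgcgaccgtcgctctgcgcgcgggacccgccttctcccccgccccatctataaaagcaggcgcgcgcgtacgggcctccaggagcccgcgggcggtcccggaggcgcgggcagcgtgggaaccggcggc
Ly6c2: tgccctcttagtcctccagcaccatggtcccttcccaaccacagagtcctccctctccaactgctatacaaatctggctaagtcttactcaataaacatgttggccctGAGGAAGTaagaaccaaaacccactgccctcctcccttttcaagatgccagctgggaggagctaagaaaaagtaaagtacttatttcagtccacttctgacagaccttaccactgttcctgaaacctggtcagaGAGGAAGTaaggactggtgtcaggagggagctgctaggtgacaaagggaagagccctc
F13a1: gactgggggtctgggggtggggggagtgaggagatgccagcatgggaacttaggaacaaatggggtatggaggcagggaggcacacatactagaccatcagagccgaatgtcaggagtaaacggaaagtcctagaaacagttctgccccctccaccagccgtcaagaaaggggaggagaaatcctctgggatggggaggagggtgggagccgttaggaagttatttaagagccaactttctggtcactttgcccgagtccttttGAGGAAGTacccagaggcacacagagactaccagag

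Over all promoters, GAGGAAGT was found in 5.65% of 1045 promoters of genes higher 2-fold or more, in 1.38% of 145 of genes lower 2-fold or more and in 3.45% of all 10316. The GFI1 core was found in 3.25%, 0.690% and 1.90% of the same 3 sets. Among the genes named by rule, it was found in Mmp8 and Irf8, which rose, and in Naaa and Tubb5, which fell. The C/EBP motif was found in 12.2%, 6.90% and 8.07%. The ETS-IRF composite motif was searched too and was found in 3.06%, 3.45% and 2.26%, with the highest share in the lower set (5 promoters). These shares are descriptions of letters within 300 bases, and the sets were not tested against each other.

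Genes of the phagocyte machinery mostly rose, with a median nearer 0 than that of the granule and monocyte lists. Of 26 tested oxidase and lysosome genes, 20 were higher and 2 lower, with a median log2 fold change of 0.33 (edgeR, as for every count of members). Lipa, lysosomal acid lipase, had 71.6, 76.5 and 74.0 CPM in KO libraries, against 22.5, 24.9 and 24.5 CPM in CTL libraries (log2 fold change 1.62 ± 0.052, edgeR adjusted p = 1.2e-21). Ncf1, a cytosolic subunit of the phagocyte oxidase, rose to 89.7 ± 0.46 CPM in KO, against 52.8 ± 0.85 CPM in CTL (log2 fold change 0.76 ± 0.038). Its catalytic subunit gene Cybb stayed near 0, at 0.155 ± 0.035 CPM in KO and 0.0684 ± 0.033 CPM in CTL, and was not called. Cyba, the membrane partner of Cybb, fell to 63.9 ± 2.1 CPM in KO, against 78.2 ± 2.0 CPM in CTL (log2 fold change -0.30 ± 0.045). The lysosomal genes Ctsd and Psap rose by 0.63 ± 0.034 and 0.51 ± 0.028 on the log2 scale.

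Receptors of innate immunity mostly rose: 23 of 28 tested pattern recognition genes were higher and 1 lower, with a median log2 fold change of 1.18. Tmem173, encoding the DNA-sensing adaptor STING, had 148, 138 and 140.4 CPM in KO libraries, against 42.8, 44.8 and 43.0 CPM in CTL libraries (log2 fold change 1.70 ± 0.038, edgeR adjusted p = 2.1e-25). Tlr7, a receptor for single-stranded RNA, had 10.8, 11.3 and 11.5 CPM in KO libraries, against 2.04, 2.00 and 2.00 CPM in CTL libraries (log2 fold change 2.47 ± 0.11). Tlr1, which pairs with TLR2 on lipopeptides, was 2.33 ± 0.061 CPM in KO and had 2 counts in all CTL libraries together (ratio with a 95% counting interval of 28.0 to 854). The inflammasome protease gene Casp1 rose to 37.4 ± 1.4 CPM in KO, against 13.4 ± 0.95 CPM in CTL (log2 fold change 1.47 ± 0.074). Nlrp3, an inflammasome sensor, was the 1 gene that fell, to 8.22 ± 1.0 CPM in KO, against 15.4 ± 1.2 CPM in CTL (log2 fold change -0.92 ± 0.11). Interferon-stimulated genes, partly the same receptors, were higher for 23 of 31 tested and lower for 1, with a median log2 fold change of 0.84. Among them Trim30a was 19.6 ± 1.2 CPM in KO and 8.64 ± 0.21 CPM in CTL (log2 fold change 1.18 ± 0.085), and the RNA sensor gene Ddx58 was 27.0 ± 0.36 CPM in KO and 13.1 ± 0.54 CPM in CTL (log2 fold change 1.03 ± 0.068). The antiviral gene Rsad2 fell to 4.73 ± 0.083 CPM in KO, against 8.66 ± 0.96 CPM in CTL (log2 fold change -0.87 ± 0.11), and Irf1 was not called.

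Surface molecules of trafficking leukocytes were higher for 28 of 34 tested adhesion and chemoattractant receptor genes and lower for 2, with a median log2 fold change of 0.74. Selplg, the selectin ligand PSGL-1, had 450.4, 442 and 428 CPM in KO libraries, against 202, 210.4 and 188 CPM in CTL libraries (log2 fold change 1.13 ± 0.047, edgeR adjusted p = 9.1e-19). Icam1 rose to 83.4 ± 1.8 CPM in KO, against 26.3 ± 1.7 CPM in CTL (log2 fold change 1.66 ± 0.046), and its integrin receptor chains Itgb2 and Itgal rose by 1.21 ± 0.053 and 0.57 ± 0.038 on the log2 scale. Cd44, the hyaluronan receptor, fell to 154 ± 2.7 CPM in KO, against 207 ± 7.8 CPM in CTL (log2 fold change -0.43 ± 0.041), and was with Cxcr4 the exception in the list.

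Cytokine signalling genes changed at both the receptor and the ligand end. Of 31 tested growth factor and cytokine receptors, 20 were higher and 3 lower, beside 28.7% and 26.3% of all tested genes. Their median was 0.32 on the log2 scale. Csf2rb, the shared signalling chain of the interleukin-3, interleukin-5 and GM-CSF receptors, had 831, 810.0 and 799 CPM in KO libraries, against 325, 359.6 and 342 CPM in CTL libraries (log2 fold change 1.24 ± 0.055, edgeR adjusted p = 3.5e-18). Its interleukin-3-specific copy Csf2rb2 had 397, 370.1 and 366 CPM in KO libraries, against 94.4, 102 and 87.6 CPM in CTL libraries (log2 fold change 1.99 ± 0.073). The 2 copies are near-identical, so reads could be split between them. Ifngr2 rose to 91.5 ± 0.55 CPM in KO, against 28.8 ± 1.8 CPM in CTL (log2 fold change 1.66 ± 0.048), and the common gamma chain gene Il2rg to 44.9 ± 1.7 CPM in KO, against 16.5 ± 1.6 CPM in CTL (log2 fold change 1.44 ± 0.064). Il7r, the interleukin-7 receptor of lymphoid progenitors, was among the 3 that fell, at 0.313 ± 0.18 CPM in KO and 1.08 ± 0.32 CPM in CTL. Of 28 tested ligands, 18 were higher and 1 lower (2 lower without CTL 3), with a median log2 fold change of 1.09, or 0.96 with a low-count gene at its bound. Lif, a cytokine of the interleukin-6 family, had 51.6, 49.0 and 48.3 CPM in KO libraries, against 12.3, 12.5 and 11.9 CPM in CTL libraries (log2 fold change 2.02 ± 0.078). Oncostatin M, Osm, rose to 98.9 ± 7.6 CPM in KO, against 39.7 ± 2.0 CPM in CTL (log2 fold change 1.31 ± 0.087), and Il6 to 44.2 ± 0.95 CPM in KO, against 17.6 ± 2.4 CPM in CTL (log2 fold change 1.32 ± 0.079). Vegfa, the angiogenic factor, was the 1 ligand that fell, with 11.4, 11.8 and 10.4 CPM in KO libraries, against 30.5, 30.8 and 28.1 CPM in CTL libraries (log2 fold change -1.42 ± 0.065).

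Markers of other blood lineages moved as well. Of 14 tested mast cell and basophil markers, 12 were higher and 0 lower (edgeR, and also 0 lower at an unadjusted p under 0.05 and with DESeq2), with a median log2 fold change of 1.08. Their summed CPM was 4203 to 4284 in KO and 1962 to 2002 in CTL. Histidine decarboxylase, Hdc, had 1456, 1442 and 1496 CPM in KO libraries, against 434, 441 and 463 CPM in CTL libraries (log2 fold change 1.71 ± 0.037, edgeR adjusted p = 8.7e-26). The mast cell carboxypeptidase gene Cpa3 had 1833, 1802 and 1842 CPM in KO libraries, against 1032, 1006 and 964 CPM in CTL libraries (log2 fold change 0.86 ± 0.042). Mcpt8, a basophil protease, rose to 24.2 ± 0.39 CPM in KO, against 8.13 ± 0.083 CPM in CTL (log2 fold change 1.57 ± 0.072). Both groups grew in interleukin-3 and stem cell factor, and the part of mast cells or basophils in any other result was not tested. Of 6 tested eosinophil markers, 5 were higher and 0 lower (edgeR, and also 0 lower at an unadjusted p under 0.05 and with DESeq2), at a summed 11.2 to 13.1 CPM in KO and 1.90 to 2.23 CPM in CTL. Cebpe, given above as a factor of late granulocyte maturation, was 1 of the 5. It held the largest part of that sum, at 5.55 ± 0.41 CPM in KO and 0.898 ± 0.055 CPM in CTL. The eosinophil chemokine receptor gene Ccr3 was 1.45, 1.20 and 1.16 CPM in KO libraries and had 0 counts in CTL libraries, so it was at least 37.3-fold higher against a floor of 3 counts over the group. The granule genes Ear1, Ear2 and Ear6 had 0 counts in all 6 libraries. Of 18 tested megakaryocyte and platelet markers, 13 were higher and 3 lower, beside 28.7% and 26.3% of all tested genes. Their median log2 fold change was 0.49. P-selectin, Selp, rose to 3.93 ± 0.13 CPM in KO, against 0.394 ± 0.12 CPM in CTL (log2 fold change 3.29 ± 0.22), and thrombospondin 1, Thbs1, fell to 20.8, 19.9 and 16.2 CPM in KO, against 55.3, 65.7 and 60.7 CPM in CTL (log2 fold change -1.68 ± 0.097). Of 9 tested erythroid markers, 4 were higher and 1 lower, beside 28.7% and 26.3% of all tested genes. Tfrc, Gata1 and Rhd rose, by 0.40 ± 0.064, 0.55 ± 0.11 and 2.61 ± 0.31 on the log2 scale. Rhd reached only 1.20 ± 0.21 CPM in KO. The 1 that fell was the carbonic anhydrase gene Car2, to 66.9 ± 0.57 CPM in KO, against 133 ± 9.5 CPM in CTL (log2 fold change -0.997 ± 0.056).

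Antigen presentation genes moved in both directions: 13 of 18 tested MHC class II and dendritic cell genes were higher and 2 lower, with a median log2 fold change of 1.20, or 0.95 with low-count genes at their bounds. Cd74, the invariant chain, had 3.24, 4.57 and 3.24 CPM in KO libraries, against 0.151, 0.0969 and 0.0983 CPM in CTL libraries (log2 fold change 4.95 ± 0.31, edgeR adjusted p = 1.6e-14). H2-Ab1, a class II beta chain, fell to 47.4 ± 3.7 CPM in KO, against 59.6 ± 2.3 CPM in CTL (log2 fold change -0.33 ± 0.051), and so did H2-DMa, a peptide-loading subunit, to 32.1 ± 0.65 CPM in KO, against 44.7 ± 1.7 CPM in CTL (log2 fold change -0.48 ± 0.051). Clec9a, Siglech and Cd209a had 0 counts in all 6 libraries. Of 10 tested B cell markers, 2 were higher (0 without KO 2, 1 without KO 3 or CTL 3, 1 from the 12 MN1 libraries and 0 from the 6 libraries compared) and 2 lower, each share under that of all tested genes (28.7% higher and 26.3% lower). Ighm, the immunoglobulin mu heavy chain, carried most of their sum and had 6.41, 7.01 and 5.70 CPM in KO libraries, against 35.7, 34.7 and 35.7 CPM in CTL libraries (log2 fold change -2.48 ± 0.063). T and NK markers had 3 higher and 1 lower of 6 tested, beside 28.7% and 26.3% of all tested genes. The 3 higher ones rose 2-fold or more. Nkg7, which was also in the primary granule list, rose to 33.7 ± 1.3 CPM in KO, against 7.05 ± 0.39 CPM in CTL (log2 fold change 2.25 ± 0.090, edgeR adjusted p = 3.5e-19). Gzmb rose by 1.19 ± 0.11 on the log2 scale. The lower one was Lck (log2 fold change -0.18 ± 0.079, edgeR adjusted p = 0.048). Lck lost its call without any 1 of KO 2, KO 3, CTL 1, CTL 2 and CTL 3 (edgeR adjusted p of 0.081 to 0.139). Its adjusted p was also over 0.05 with RLE scaling (0.0697), with no count filter (0.0726) and with DESeq2 (0.0912). The T and NK genes Cd3e, Cd3g, Cd8a, Trbc1 and Gzma had 0 counts in all 6 libraries. Of 8 tested stromal markers, 4 were higher and 1 lower, beside 28.7% and 26.3% of all tested genes. Col3a1, Cxcl12, Dcn, Lum and Cdh5 had 0 counts in all 6 libraries.

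Retinoid pathway genes were read for their level in the absence of ATRA. Of 20 tested, 9 were higher and 4 lower, beside 28.7% and 26.3% of all tested genes, with a median log2 fold change of 0.33. Tgm2, transglutaminase 2 (chr2:158116405-158146392), a target gene of retinoic acid receptors, fell more than any other gene at or above 5 CPM in CTL apart from Kdm1a: 3.74, 3.37 and 3.20 CPM in KO libraries, against 68.8, 68.4 and 65.2 CPM in CTL libraries (log2 fold change -4.30 ± 0.075, edgeR adjusted p = 3e-28). Cd38, which retinoids induce in human leukaemia cells, rose to 3.62 ± 0.59 CPM in KO, against 0.765 ± 0.15 CPM in CTL (log2 fold change 2.22 ± 0.17). The receptor gene Rara was 32.8, 34.2 and 33.7 CPM in KO libraries and 25.5, 23.9 and 22.2 CPM in CTL libraries (log2 fold change 0.49 ± 0.068). Dhrs3, which reduces retinal, rose to 39.3 ± 1.3 CPM in KO, against 31.6 ± 0.27 CPM in CTL (log2 fold change 0.31 ± 0.044), and Cyp26a1, the retinoic acid hydroxylase, had 0 counts in all 6 libraries.

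Genes of DNA replication and mitosis mostly fell, by small amounts. Of 36 tested replication genes, 29 were lower and 4 higher, with a median log2 fold change of -0.41. Of 32 mitosis genes, 28 were lower and 2 higher, with a median of -0.39 on the same scale. The replicative helicase subunit Mcm2 had 291, 296 and 301 CPM in KO libraries, against 425, 426 and 438 CPM in CTL libraries (log2 fold change -0.54 ± 0.034, edgeR adjusted p = 2e-14). Mcm7 fell to 360.4 ± 6.4 CPM in KO, against 515 ± 9.1 CPM in CTL (log2 fold change -0.52 ± 0.029), and the sliding clamp gene Pcna to 332 ± 8.8 CPM in KO, against 421 ± 7.1 CPM in CTL (log2 fold change -0.35 ± 0.032). Among mitotic regulators, cyclin A2, Ccna2, had 142, 147 and 149.5 CPM in KO libraries, against 204, 204 and 198 CPM in CTL libraries (log2 fold change -0.47 ± 0.032). The spindle checkpoint gene Mad2l1 fell to 101 ± 3.8 CPM in KO, against 156 ± 2.9 CPM in CTL (log2 fold change -0.63 ± 0.044). Mki67, the proliferation marker, was 412, 316 and 331 CPM in KO libraries and 395, 462 and 496 CPM in CTL libraries, which overlapped (log2 fold change -0.36 ± 0.12, edgeR adjusted p = 0.01). Ccnd1, Ccnd2, E2f2 and Tyms in the replication list and Ect2 and Nusap1 in the mitosis list rose, by 1.30, 0.17, 0.63, 0.13, 0.19 and 0.17 on the log2 scale in that order, and the KO and CTL libraries of Ccnd1 overlapped.

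Targets of p53 moved the other way, with 23 of 28 higher and 1 lower (2 lower without KO 1) and a median log2 fold change of 0.74. Cdkn1a, the p21 inhibitor of cyclin-dependent kinases, had 449.8, 454 and 435 CPM in KO libraries, against 190.4, 184 and 174 CPM in CTL libraries (log2 fold change 1.28 ± 0.042, edgeR adjusted p = 2.8e-21). Zmat3, an RNA-binding p53 target, had 179, 171 and 167 CPM in KO libraries, against 50.03, 47.9 and 44.3 CPM in CTL libraries (log2 fold change 1.86 ± 0.048). Ccng1 rose to 479 ± 11 CPM in KO, against 197 ± 7.2 CPM in CTL (log2 fold change 1.28 ± 0.037), and the apoptosis effector gene Perp to 107 ± 0.91 CPM in KO, against 26.5 ± 2.5 CPM in CTL (log2 fold change 2.01 ± 0.064). Mdm2, the ubiquitin ligase of p53, rose by 0.63 ± 0.037 and the pro-apoptotic gene Bax by 0.60 ± 0.041 on the log2 scale. The kinase inhibitor gene Cdkn1b was not called, and Cdkn2b fell to 3.78 ± 0.27 CPM in KO, against 5.15 ± 0.24 CPM in CTL.

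Ribosome biogenesis and glycolysis genes were mostly lower. Of 36 ribosome biogenesis genes, 31 were lower and 1 higher (2 higher without KO 2), with a median of -0.24 on the log2 scale. Nucleolin, Ncl, was 2323 ± 25 CPM in KO and 2682 ± 82 CPM in CTL (log2 fold change -0.21 ± 0.041), and the nucleolar phosphoprotein gene Nolc1 was 342 ± 16 CPM in KO and 459 ± 6.9 CPM in CTL (log2 fold change -0.43 ± 0.037). Of 22 glycolysis genes, 15 were lower and 6 higher, with a median of -0.25 on the log2 scale. Lactate dehydrogenase A, Ldha, had the largest fall in CPM of any gene called, with 1836, 1779 and 1734 CPM in KO libraries, against 2565, 2643 and 2658 CPM in CTL libraries (log2 fold change -0.56 ± 0.030, edgeR adjusted p = 5.8e-16). Hk3, the hexokinase of mature myeloid cells, ran against the list, with 139, 136 and 139 CPM in KO libraries, against 17.2, 16.7 and 15.98 CPM in CTL libraries (log2 fold change 3.05 ± 0.039, edgeR adjusted p = 1.4e-31). The lactate dehydrogenase B gene, Ldhb, did so too, at 1.55 ± 0.16 CPM in KO and 0.281 ± 0.067 CPM in CTL (log2 fold change 2.42 ± 0.30). Sterol and fatty acid synthesis genes were 9 higher and 11 lower of 31, with a median of -0.05, near the shares of all tested genes (28.7% higher and 26.3% lower).

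**Figure D3:**
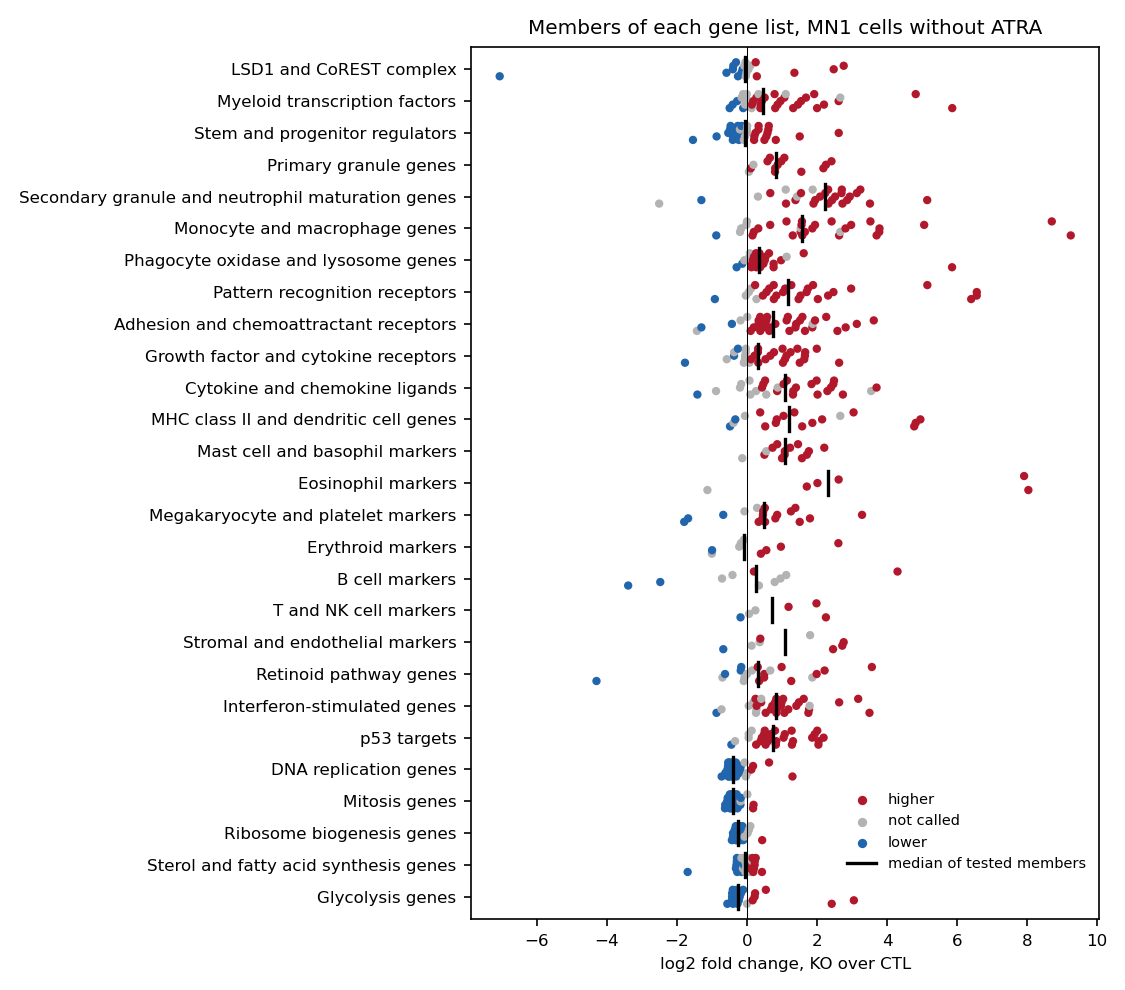
Each point is a tested member of 1 of 27 gene lists, placed by its fitted log2 fold change, KO over CTL, and coloured by its call, with the median of the tested members as a black bar. Lists of mature myeloid cells lie right of 0 (median 2.23 for secondary granule genes and 1.58 for monocyte genes), and lists of DNA replication and mitosis lie left of it (-0.41 and -0.39). The fitted values of members with 0 or few counts in a group depend on the prior count.

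The genes that changed most in fold, whatever their list, were read last. Stab1, the scavenger receptor stabilin-1 of macrophages (chr14:31139017-31168651), had 508, 475 and 458 CPM in KO libraries, against 1.32, 0.937 and 0.983 CPM in CTL libraries (log2 fold change 8.80 ± 0.091, edgeR adjusted p = 6.5e-34). Slc15a3, a peptide and histidine transporter of endolysosomes, had 76.3, 83.9 and 76.2 CPM in KO libraries, against 0.415, 0.258 and 0.393 CPM in CTL libraries (log2 fold change 7.78 ± 0.10). Itga3, the integrin alpha-3 chain, had 59.8, 56.7 and 60.2 CPM in KO libraries, against 0.566, 0.323 and 0.360 CPM in CTL libraries (log2 fold change 7.15 ± 0.11). Levels close to 0 in CTL were common to these genes. Amotl1, an angiomotin-like scaffold of cell junctions, rose to 63.3 ± 2.7 CPM in KO, against 0.346 ± 0.092 CPM in CTL, and the microsomal transferase gene Mgst1 to 29.8 ± 1.1 CPM in KO, against 0.250 ± 0.049 CPM in CTL. Tarm1, an activating receptor of myeloid cells, rose to 28.1 ± 0.62 CPM in KO, against 0.210 ± 0.14 CPM in CTL, and the B-cell activating factor gene Tnfsf13b to 9.81 ± 0.67 CPM in KO, against 0.0541 ± 0.049 CPM in CTL. Ptgfrn, an immunoglobulin-like membrane protein, was 5.87, 4.93 and 5.13 CPM in KO libraries with 0 counts in CTL libraries, at least 156-fold higher against a floor of 3 counts over the group. Ltbp2, a latent TGF-beta binding protein, was 6.86 ± 0.25 CPM in KO with 1 count in CTL (ratio with a 95% counting interval of 108 to 23886).

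Falls of this size were fewer. After Tgm2 came Smpd3, a neutral sphingomyelinase, with 1.07, 1.20 and 1.19 CPM in KO libraries, against 15.1, 15.3 and 15.2 CPM in CTL libraries (log2 fold change -3.72 ± 0.15, edgeR adjusted p = 2.2e-17). The atypical cadherin gene Cdh23 fell to 1.34 ± 0.23 CPM in KO, against 7.80 ± 0.91 CPM in CTL (log2 fold change -2.54 ± 0.16), and the matrix protein gene Thbs2 to 2.35 ± 0.43 CPM in KO, against 12.1 ± 0.75 CPM in CTL (log2 fold change -2.35 ± 0.15). Naaa, a lysosomal amidase, Ednra, the endothelin receptor, and Ryr2, the ryanodine receptor of heart muscle, fell by 2.33, 2.01 and 1.99 on the log2 scale. By difference in CPM, which weights abundant and long genes, the largest rises among called genes were in Mpo, Calr, Emb, Cd34, Hdc and Cpa3, and the largest falls in Ldha, Gapdh, Pkm, Eno1, Tubb5 and Aldoa. Emb, the cell adhesion protein embigin, had 1375, 1370.2 and 1331 CPM in KO libraries, against 249, 258 and 267 CPM in CTL libraries (log2 fold change 2.39 ± 0.043). Gapdh fell to 3897 ± 75 CPM in KO, against 4560.5 ± 93 CPM in CTL (log2 fold change -0.23 ± 0.031).

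The 6 other MN1 libraries, grown with 1 µM ATRA, gave a second reading of the same knockout that shares no library with the first. There 8389 genes (57.2%) were called, 4191 higher and 4198 lower (28.6% each). Of the 4212 genes higher without ATRA, 3510 were higher with ATRA (83.3% of the first list and 83.8% of the second) and 23 were lower. Of the 3859 genes lower without ATRA, 3333 were lower with ATRA (86.4% of the first list and 79.4% of the second) and 6 were higher. At 2-fold or more 1452 genes were higher with ATRA (9.90%) and 267 lower (1.82%), and 1160 of the 1449 higher and 137 of the 210 lower without ATRA were among them. Single genes kept their direction with other sizes: the log2 fold change with ATRA was 4.97 for Mmp8, 8.10 for Stab1, 2.72 for Gfi1b and 5.50 for Ly6c2. For Irf8 it was 0.44 with ATRA beside 1.46 without, and for Tgm2 -2.10 with ATRA beside -4.30 without. The difference between the 2 readings was not tested here.

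The H9M model without ATRA showed where the MN1 response differed. In H9M cells 7557 genes (51.5%) were called, 3834 higher (26.1%) and 3723 lower (25.4%). Of the 4212 genes higher in MN1 cells, 2486 were also higher in H9M cells (59.0% of the MN1 list and 64.8% of the H9M list) and 298 were lower there (7.08%). Of the 3859 genes lower in MN1 cells, 2353 were lower in H9M cells (61.0% of the MN1 list and 63.2% of the H9M list) and 233 were higher (6.04%). At 2-fold or more 1273 genes were higher (8.68%) and 241 lower (1.64%) in H9M cells, and the shared genes were 700 of 1449 higher in MN1 cells (48.3%, and 55.0% of the H9M list) and 53 of 210 lower (25.2%, and 22.0% of the H9M list). The test of the difference itself, the MN1 effect minus the H9M effect, called 4159 genes (28.4%), 2080 with a larger log2 fold change in MN1 cells and 2079 with a smaller one (14.2% each). Differences of 2-fold or more were called for 472 genes upward (3.22%) and 436 downward (2.97%). The column names give all MN1 libraries 1 tag and all H9M libraries another, and what the tag stands for is not stated. Model and tag cannot be told apart, though each knockout effect was taken within a tag.

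By list, the models differed in which myeloid genes rose. Of 14 primary granule genes, 9 had a called difference above 0 (larger in MN1 cells) and 1 below, and 7 were higher and 3 lower in H9M cells. The log2 fold change of Ms4a3 was 2.41 in MN1 cells and 0.20 in H9M cells (difference 2.22, edgeR adjusted p = 3.5e-19). Of 31 monocyte genes, 7 had a called difference above 0 and 12 below, beside 14.2% of all tested genes in each direction. Ly6c2 rose more in MN1 cells, by 5.06 against 1.27 in H9M cells on the log2 scale (difference 3.79, edgeR adjusted p = 3.1e-25), and Irf8 less, by 1.46 against 5.63 (difference -4.17, edgeR adjusted p = 2.7e-25). Of 36 replication genes, 24 had a called difference below 0, and of 32 mitosis genes 20 did. Above 0 lay 3 replication genes and 0 mitosis genes (edgeR, and also 0 at an unadjusted p under 0.05), beside 14.2% of all genes in each direction. In H9M cells 23 of the replication genes were lower and 3 higher, and 20 of the mitosis genes lower and 2 higher. The shares of all tested genes there were 25.4% lower and 26.1% higher, so most of both lists fell in each model. For Ccna2 the log2 fold change was -0.47 in MN1 cells and -0.07 in H9M cells (difference -0.40, edgeR adjusted p = 4e-08). Of 31 sterol and fatty acid synthesis genes, 17 had a called difference above 0 and 1 below, and 11 were lower in MN1 cells against 24 in H9M cells. Of the 4159 genes with a called difference, 435 were called in opposite directions between models at 5 CPM or more in each. How many of all genes reached that level was not counted. Of the 435 genes, 231 were higher in MN1 cells and 204 lower. Spns2, the sphingosine-1-phosphate exporter, was 1 of them (0.54 in MN1 cells and -2.28 in H9M cells on the log2 scale), and F13a1 was another (-0.88 in MN1 cells and 1.76 in H9M cells).

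**Figure D4:**
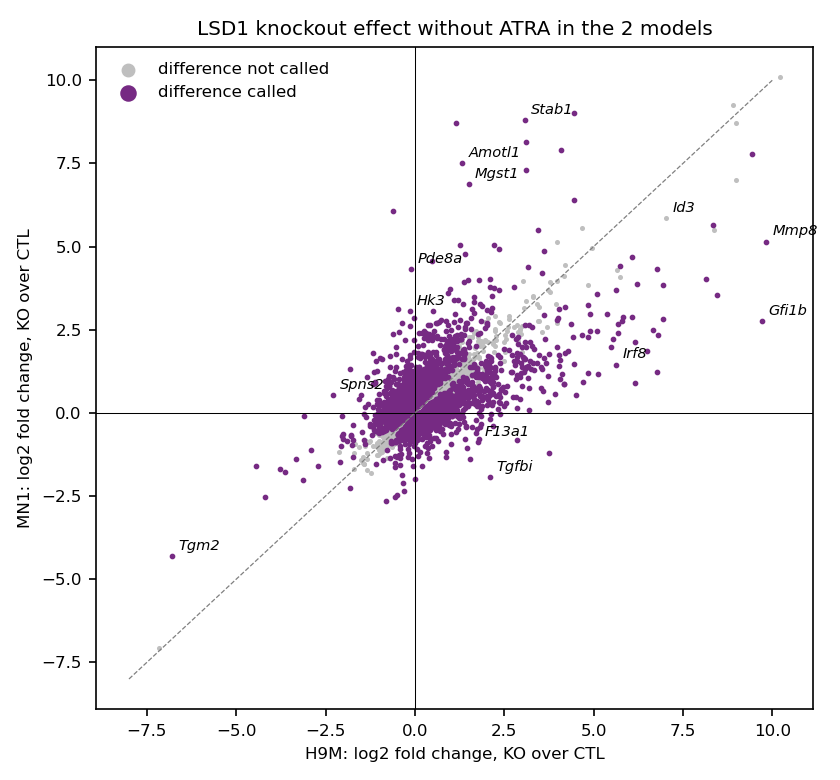
Log2 fold change, KO over CTL without ATRA, in H9M cells (x axis) and MN1 cells (y axis) for the 11043 genes at 1 CPM or more in each model, with the line of equal effects dashed. Purple genes (3828) had a called difference. Stab1, Amotl1 and Mgst1 lie above the line and Gfi1b, Mmp8 and Irf8 below it, and F13a1 and Tgfbi lie in the quadrant that is lower in MN1 and higher in H9M.

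Promoter H3K4me2, a mark that LSD1 removes, was read in other cells: lineage-negative bone marrow cells labelled GFI1-KD and GFI1-WT, 1 library each, so no difference between them has a replicate check. Reads within 1000 bases of the start site were counted for genes with at least 20 reads, from 9538627 reads in GFI1-KD and 8949072 in GFI1-WT. Promoters of genes higher 2-fold or more in MN1 KO cells had a median log2 ratio, GFI1-KD over GFI1-WT, of 0.36 (n = 941 genes), and 75.6% lay above 0. Promoters of genes lower 2-fold or more had a median of 0.15 (n = 124, 58.9% above 0), and all tested genes had a median of -0.04 (n = 9865, 43.0% above 0). Both 2-fold sets had less signal in GFI1-WT. The median there was 14.2 RPM (reads per 1000000 kept reads) for the higher set, 15.1 RPM for the lower set and 27.8 RPM for all tested genes. Whether the ratio depends on that level was not tested. Over all called genes, whatever their fold, the median was 0.04 for higher genes (n = 3070, 55.8% above 0) and -0.07 for lower genes (n = 3019, 34.0% above 0), so the sign for lower genes turned with the fold limit. The risen genes among the promoters shown above lay over the median of 0.36, with log2 ratios of 2.055 for Mmp8, 2.05 for Ms4a3, 1.25 for Ly6c2 and 0.97 for Irf8. They do not stand for the whole set. Among the largest rises by fold whose promoter was read, the ratio ran from -0.32 for Amotl1 to 1.42 for Tnfsf13b. The Mmp8 promoter held 27.6 RPM in GFI1-KD and 6.59 RPM in GFI1-WT. The Ms4a3 promoter held 14.1 RPM in GFI1-KD and 3.35 RPM in GFI1-WT, and the Ly6c2 promoter 15.5 RPM in GFI1-KD and 6.48 RPM in GFI1-WT. Irf8 had 33.3 RPM in GFI1-KD and 17.0 RPM in GFI1-WT. F13a1, which fell in MN1 KO cells, also had more signal in GFI1-KD, with 28.5 RPM against 8.72 RPM in GFI1-WT. Naaa and Tubb5, which hold a GFI1 core and fell in MN1 KO cells, had log2 ratios of 0.09 and 0.05.

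**Figure D5:**
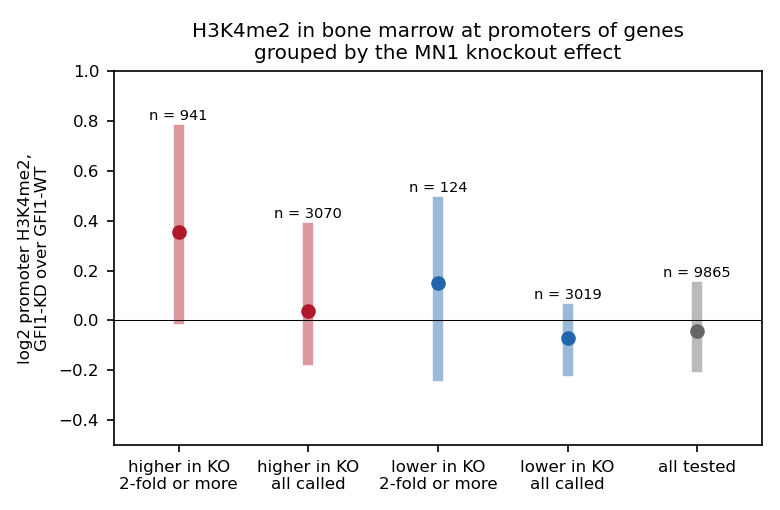
Median (point) and middle 50% (bar) of the log2 ratio of promoter H3K4me2, GFI1-KD over GFI1-WT bone marrow, for genes grouped by the MN1 knockout effect. The median is 0.36 for genes higher 2-fold or more, 0.15 for genes lower 2-fold or more, 0.04 and -0.07 for all called higher and lower genes and -0.04 for all tested genes, and 1 library stands behind each genotype.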

How the data were processed

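RNA was sequenced from stranded total RNA libraries as paired reads, per the labels' protocols. The authors deposited whole-number counts per gene and library, and the submitters' processing notes name STAR 2.5.3 and mm10 for these samples. The counting tool, its annotation and its strand setting are not given in the sources, so antisense, overlapping and paralogous genes are uncertain. Gene symbols were matched by Ensembl ID (48349 matched, 446 did not), and 21762 of 48795 genes had no count. The members, gene lists and tests were chosen with earlier results of these data known, and no list was tested as a set.

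Counts of all 24 RNA libraries (22402558 to 32674685 counts each) were filtered by filterByExpr and scaled by TMM in edgeR 4.0.16 (R 4.3.3). One mean per group was fitted by glmQLFit with 16 residual df and a common biological variation of 4.01%. Contrasts were tested by glmQLFTest, two-sided, and adjusted by Benjamini-Hochberg over 14663 genes, with a call at an adjusted p under 0.05. The SE of a fold change is its size over the square root of the F statistic. Genes with 0 to 3 counts in a group have no fitted fold change printed as a bound, and intervals and floors cover counting error only. Replicate pairs differed by 2.12 to 5.54 chi-square units per gene, beyond sampling noise.

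Genes named were the targeted, transforming and recruiting factors, the 12 largest rises and falls by fold at 5 CPM or more in 1 group, up to 4 called members of each list by adjusted p, the 6 largest rises and falls by CPM, and the 6 largest opposite effects between models in each direction. Others were chosen after their values were seen, and some genes the rule chose are not reported here. The alternatives were RLE scaling, DESeq2 1.42.0, no count filter, the replicate number as a block, fewer libraries in the fit and leaving out each library.

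The deposited ChIP files hold 1 read per line with a score, its mapping quality, and the submitters' processing notes name CASAVA 1.8.2, BWA, bedtools 2.27.0, mm10 and GRCm38 for them. Reads of score 10 or more were counted once per position and scaled to RPM, with 0.5 reads added for ratios. No input library was used here. Promoters and gene positions are from RefSeq (GRCm38.p6), matched by symbol. Where a gene had several start sites, the one with the most ChIP reads over both libraries was kept.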

Additional observations from a re-analysis of the deposited data

Results flagged for a closer look

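The knockout effect without ATRA differed between the MN1 and H9M models, by the test of the difference itself (edgeR's quasi-likelihood test, MN1 minus H9M, log2 scale), for 24 of the genes chosen by the naming rule. Only genes at 5 CPM or more in at least 1 group of each model were considered, and the 24 were either called in opposite directions (18 genes) or differed by more than 4 (8 genes). All values below are such differences, each from 3 KO and 3 CTL libraries per model. The models carry different tags in the column names, which cannot be told apart from the model.

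Among genes whose log2 fold change was smaller in MN1 cells, the largest difference was that of Gfi1b, at -6.95 (edgeR adjusted p = 1.3e-22). Its KO level was 475 ± 3.2 CPM in MN1 cells and 119 ± 8.1 CPM in H9M cells, and its CTL level was 69.8 ± 3.6 CPM in MN1 cells and 0.138 ± 0.021 CPM in H9M cells (SD, n = 3). The granule gene Mmp8 differed by -4.69 and the monocyte factor gene Irf8 by -4.17. Tgfbi, a matrix protein induced by TGF-beta, differed by -4.04, with KO levels of 10.0 ± 0.63 CPM in MN1 cells and 56.9 ± 0.58 CPM in H9M cells and CTL levels of 38.2 ± 0.86 CPM in MN1 cells and 13.3 ± 0.45 CPM in H9M cells. Further differences were -2.91 for Col25a1, -2.64 for F13a1, -2.58 for Plcb1, -2.57 for Lrp1, -2.52 for Aldh1l2, -1.39 for Cxcr4 and -0.35 for Pkm.

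In the other direction Stab1 differed by 5.72 (edgeR adjusted p = 1.3e-16), with KO levels of 480.2 ± 25 CPM in MN1 cells and 10.9 ± 0.79 CPM in H9M cells. The transferase gene Mgst1 differed by 5.36, the phosphodiesterase gene Pde8a by 4.42, Tnfsf13b by 4.21 and the hexokinase gene Hk3 by 3.19. For Hk3 the KO level was 138 ± 1.8 CPM in MN1 cells and 759 ± 2.1 CPM in H9M cells, and the CTL level was 16.6 ± 0.63 CPM in MN1 cells and 842 ± 13 CPM in H9M cells. Smaller differences were 3.04 for Rhoj, 2.87 for Pglyrp1, 2.82 for Spns2, 2.66 for Mcpt8, 1.68 for Cyp11a1, 1.31 for Ddx58, 0.45 for Pecam1 and 0.34 for Cd24a, whose own call in MN1 cells (log2 fold change 0.20) was lost in some alternatives.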

How the results depend on the processing

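The counts of called genes stayed within 1.5 times their values under every alternative run. Genes higher and lower without ATRA numbered 4363 and 3640 with RLE scaling, 4225 and 3541 with DESeq2, 4189 and 3891 with no count filter (27033 genes), 4305 and 3804 from the 12 MN1 libraries and 4019 and 4077 from the 6 libraries compared. Leaving out each library gave 3899 to 4218 higher and 3402 to 3657 lower genes without ATRA, 7839 to 8008 called genes with ATRA and 3726 to 3864 called differences between models. Deviations of same-numbered KO and CTL libraries correlated by -0.097 to 0.037. The labels do not say whether the numbers pair libraries, and correlations near 0 cannot decide whether they shared a culture. With the replicate block 4209 genes were higher and 3870 lower, and 3885 and 3872 with the block in the 6 libraries alone. No alternative moved the median of all genes by more than 0.014 (log2). Of the counts of called list members, 677 stayed within 1.5 times and 25 did not, all of them counts of 4 or fewer genes. No gene named by rule changed sign, and calls were lost for Mn1, Lck and Cd24a. With the replicate block Lck had an edgeR adjusted p of 0.0689, and with the block in the 6 libraries alone 0 of 10 B cell markers were higher and 1 lower. The share of promoters above 0 for genes higher 2-fold or more was 75.6%, and 73.8% or 75.1% with a narrower window or a higher score.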

Other observations

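The genes below were chosen after their values were seen. Acvrl1, the endothelial type I receptor ALK1, had 17.8, 16.3 and 15.7 CPM in KO libraries, against 0.264, 0.484 and 0.328 CPM in CTL libraries (log2 fold change 5.49 ± 0.19, edgeR adjusted p = 1.7e-18). Smad6, the inhibitory SMAD of the BMP branch, had 11.1, 11.3 and 9.33 CPM in KO libraries, against 0.226, 0.129 and 0.197 CPM in CTL libraries (log2 fold change 5.82 ± 0.21), while in H9M cells its log2 fold change was -0.87. Id1 and Id3, classic BMP target genes, rose as given above. Ltbp1, which holds latent TGF-beta in the matrix, fell to 8.56 ± 0.78 CPM in KO, against 23.2 ± 0.48 CPM in CTL (log2 fold change -1.44 ± 0.091).

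Claudin-1 of epithelial tight junctions, Cldn1, had 401, 418 and 419 CPM in KO libraries, against 12.1, 11.5 and 13.5 CPM in CTL libraries (log2 fold change 5.06 ± 0.11, edgeR adjusted p = 1.4e-23). E-cadherin, Cdh1, rose to 17.0 ± 0.91 CPM in KO, against 0.656 ± 0.19 CPM in CTL (log2 fold change 4.70 ± 0.17), and the ephrin receptor gene Epha2 to 5.61 ± 0.35 CPM in KO, against 0.225 ± 0.035 CPM in CTL (log2 fold change 4.59 ± 0.23). The myeloid inhibitory receptor gene Cd33 rose to 64.0 ± 1.3 CPM in KO, against 9.69 ± 0.70 CPM in CTL (log2 fold change 2.72 ± 0.075). The imprinted gene Dlk1 rose to 29.3 ± 1.3 CPM in KO, against 3.59 ± 0.18 CPM in CTL (log2 fold change 3.02 ± 0.12).

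Lower in KO cells were 4 genes of amino acid and folate metabolism. Asparagine synthetase, Asns, had 187, 180.4 and 184 CPM in KO libraries, against 421, 435 and 426 CPM in CTL libraries (log2 fold change -1.22 ± 0.038, edgeR adjusted p = 6.4e-22). The cationic amino acid transporter gene Slc7a3 fell to 11.5 ± 1.8 CPM in KO, against 34.1 ± 1.9 CPM in CTL (log2 fold change -1.58 ± 0.10). The proline synthesis gene Pycr1 fell to 10.4 ± 0.33 CPM in KO, against 26.3 ± 0.61 CPM in CTL (log2 fold change -1.34 ± 0.069), and the mitochondrial folate gene Aldh1l2 to 27.1 ± 3.0 CPM in KO, against 56.2 ± 3.6 CPM in CTL (log2 fold change -1.06 ± 0.080).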
